A study of Rattus norvegicus with 2 samples.

Results

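The hyaluronan genes described here are the synthases Has1, Has2 and Has3, the hyaluronidases Hyal1 and Hyal2, the receptors Cd44 and Hmmr, and the matrix binders Hapln1, Cspg2 (the older name of Vcan, versican) and Tnfaip6. They were taken as every non-control spot whose gene name on the array equalled one of these names once a trailing "predicted" or "mapped" tag was removed. This gave 10 genes on 14 probes, of 41012 non-control probes. Of the 10 genes, 9 were detected, among 14797 detected named genes in all, and 7 were well above background in both pools on both arrays.

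Skin of Sprague Dawley rat fetuses was compared between E16 (day 16.5, 4 samples combined into 1 RNA pool) and E19 (day 18.5, 3 samples combined into 1 RNA pool). No genetic change or treatment is given for either stage, and the labels do not say whether a sample was a single fetus or a litter. Both pools were hybridised to each of 2 Agilent two-colour arrays, with E19 in Cy5 on one and in Cy3 on the other. The arrays are therefore a dye swap of the same RNA, with 1 replicate per stage, so no test between stages was possible and the SD given after each mean is the technical spread of the 2 arrays.

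Hyaluronan is a long, unsulphated sugar chain of the extracellular matrix that is extruded through the plasma membrane by its synthases and cut by hyaluronidases into shorter chains. Cells bind it through receptors such as CD44, and matrix proteins of the link protein and lectican families anchor it into large aggregates. It is abundant in fetal skin, where the matrix it forms is known for its water content and its loose structure.

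A ratio is the log2 of E19 over E16, so that 1 stands for a doubling. A level is the log2 intensity of a pool after normalisation, and it is compared only within a probe. A summed level, given for listed genes, adds the unlogged levels of those detected. Its range is that of the 2 arrays, and the brightest probes weigh most in it. The call rule asked for a difference of 2-fold or more, in the same direction, on each array separately. By this rule Has1 was higher in E19 and Hapln1 was higher in E16, which makes 1 of 9 detected genes in each direction. Over all detected named genes, 4.14% were called higher in E19 (613 genes) and 3.75% were called higher in E16 (555 genes), and 1 of 9 is too few to set apart from either share. Of the 9 genes, 5 had a ratio above 0 on both arrays, 3 had a ratio below 0 on both, and Tnfaip6 had opposite signs. The median ratio was 0.15 over the 9 genes and 0.02 over all detected named genes.

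**Figure D1:**
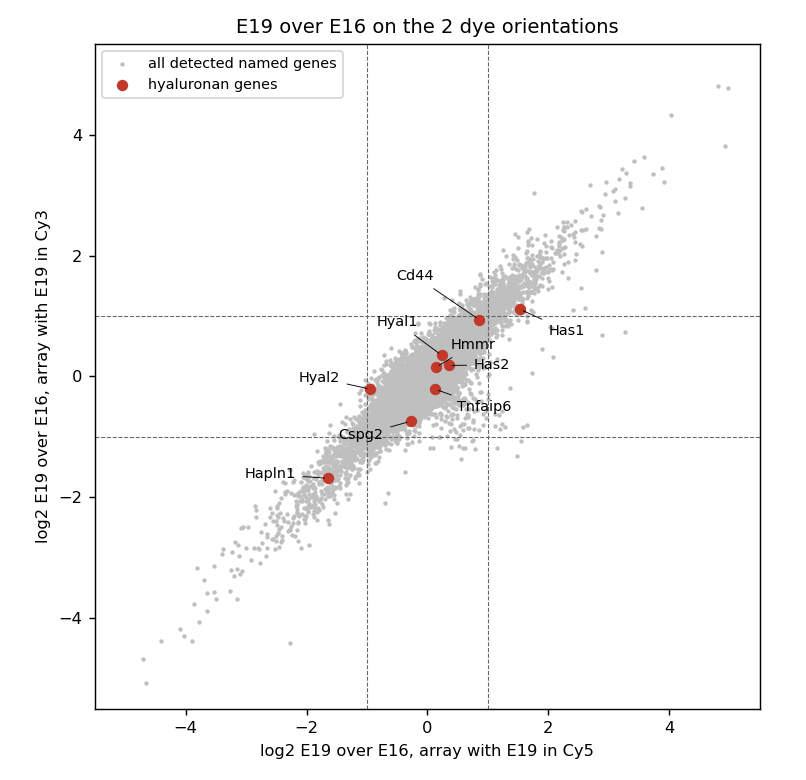
Log2 ratio of E19 over E16 on the array with E19 in Cy5 (x axis) against that on the array with E19 in Cy3 (y axis); grey points are the 14797 detected named genes, red points the 9 detected hyaluronan genes, and dashed lines mark 2-fold. Has1 lies past 2-fold on both axes towards E19 and Hapln1 towards E16, Cd44 lies just inside the lines, and Hyal2 is near the 2-fold line on the x axis and near 0 on the y axis.

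The synthases differed among themselves. Has1, one of the enzymes that polymerise hyaluronan at the plasma membrane, had a level of 10.79 in E19 and 9.26 in E16 on the array with E19 in Cy5. On the array with E19 in Cy3 its level was 10.34 in E19 and 9.23 in E16. Both E19 levels lay above both E16 levels. The ratios were 1.53 and 1.11, a mean of 1.32 ± 0.30 (SD of 2 arrays), or 2.50-fold higher in E19. Before the dyes were normalised, when Cy5 was the brighter channel of this spot on both arrays, its intensity was 2538 in E19 against 386 in E16 on the first array and 728 against 1054 on the second. In the authors' deposited table its ratio was 1.48, on the log2 scale, with a listed error of 0.18. The direction was the same under all 13 alternative settings, between 1.10 and 1.53, but the 2-fold call was lost when ratios were centred on the median of each array or on spike-in RNAs. Spike-in centring takes the spike-ins as added in equal amounts to both pools, which the sources used here do not state.

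Has2, the synthase that makes most of the hyaluronan of the embryo, had E19 levels of 12.63 and 12.61 and E16 levels of 12.28 and 12.42. The E19 levels lay above the E16 levels on both arrays, by 0.35 and 0.18, a mean of 0.27 ± 0.12 or 1.20-fold. With spike-in centring this mean was 0.05, and the arrays differed in sign (0.13 and -0.04). They also did so with median centring (0.75 and -0.34). Has3, the synthase usually credited with shorter chains, was not well above background in either pool on either array. Its spot intensity was 72.3 and 41.8 in E19 and 40.5 and 72.2 in E16. Each of these 4 values lay below the 95th percentile of 153 negative control spots in the same channel (81.4 and 46.9 for E19, 48.4 and 85.0 for E16). No ratio is given for Has3.

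The promoters of the genes that passed the rule are shown because they did so in opposite directions, together with that of Hmmr, whose ratio was near 0 and whose promoter holds a repeated motif. Each is the 250 bases before the start in RefSeq on GRCr8, written 5′ to 3′ on the strand of the gene. Capitals mark TGACGTCA (the cAMP response element) in Has1 and ATTGG, the reverse complement of CCAAT, in Hmmr.
Has1, chr1:67378445-67378694, minus strand: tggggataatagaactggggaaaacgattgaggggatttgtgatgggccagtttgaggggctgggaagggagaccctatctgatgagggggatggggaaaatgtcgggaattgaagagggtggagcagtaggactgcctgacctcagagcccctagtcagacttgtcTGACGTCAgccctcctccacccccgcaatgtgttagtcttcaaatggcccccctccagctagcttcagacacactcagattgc
Hapln1, chr2:22366717-22366966, plus strand: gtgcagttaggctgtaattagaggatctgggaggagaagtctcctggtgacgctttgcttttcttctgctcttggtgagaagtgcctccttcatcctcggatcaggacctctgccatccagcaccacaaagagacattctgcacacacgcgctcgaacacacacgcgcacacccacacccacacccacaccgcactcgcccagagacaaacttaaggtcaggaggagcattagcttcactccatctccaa
Hmmr, chr10:25665216-25665465, minus strand: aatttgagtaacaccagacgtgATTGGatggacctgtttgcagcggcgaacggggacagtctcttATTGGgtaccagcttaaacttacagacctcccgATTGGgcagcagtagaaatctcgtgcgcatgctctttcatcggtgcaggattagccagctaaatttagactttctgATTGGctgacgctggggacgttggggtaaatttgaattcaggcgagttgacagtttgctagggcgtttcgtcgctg
Motifs were searched on both strands in 33469 promoter windows of this length. The TATA box letters, TATAA, were in 24.0% of windows. CCAAT was in 34.0% and the GC box, GGGCGG, in 30.5%. The AP-1 motif TGANTCA was in 6.34% and the SOX core ACAAT in 30.0%. The cAMP response element TGACGTCA, added after the sequences had been read, was in 1.59%. None of these motifs contains another. TGACGTCA was found once in Has1, 83 to 76 bases before the start, where none of the other 5 motifs was found. None of the 6 was found in Hapln1 or in Cd44. Hmmr held 4 copies of CCAAT, and 0.565% of all windows held at least as many. Tnfaip6 held 2 copies of CCAAT, 1 of TGANTCA and 2 of ACAAT. Entries for 8 of the 10 genes were found, and Has2 and Has3 are named only. These matches describe letters in the window and nothing was measured on them here.

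**Figure D2:**
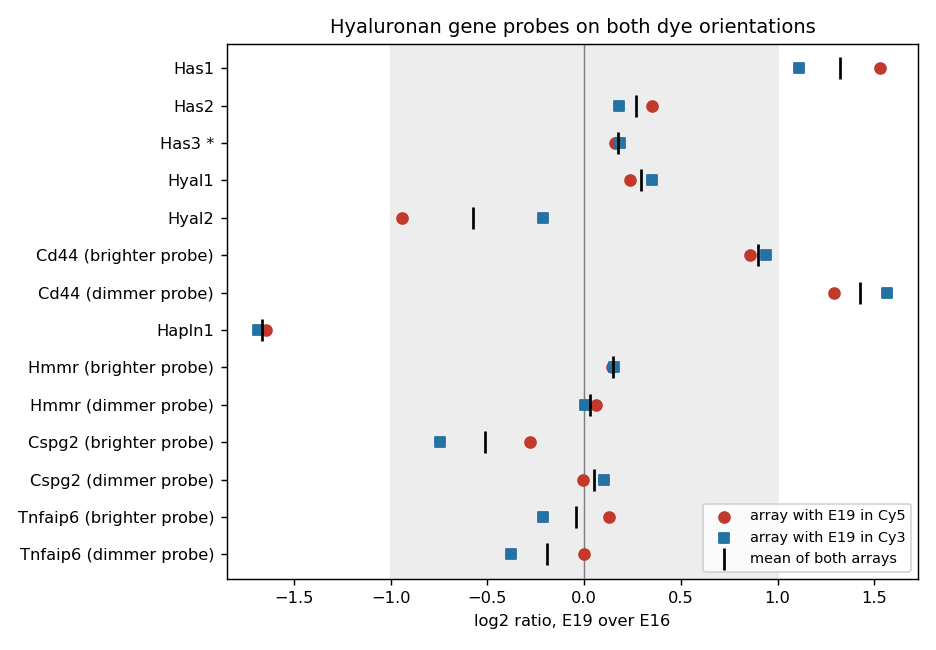
Log2 ratio of E19 over E16 (x axis) for each of the 14 hyaluronan gene probes (y axis); circles are the array with E19 in Cy5, squares the array with E19 in Cy3, vertical bars their mean, grey marks ratios under 2-fold, and the asterisk marks Has3, which was not detected. Both symbols lie outside the grey band for Has1, Hapln1 and the dimmer Cd44 probe, and the symbols are widest apart for Hyal2.

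The hyaluronidases went different ways. Hyal1, an acid hyaluronidase of lysosomes, was well above background in E19 on both arrays and in E16 on neither. Its spot intensity was 102 and 58.7 in E19 and 45.6 and 88.3 in E16. The E19 values lay above the 95th percentile of the negative control spots (81.4 and 46.9) and below the brightest of them (141 and 77.5). In E16, the value of 45.6 lay below that percentile (48.4). The E16 value of 88.3 lay above it (85.0) and below the brightest control spot (236). After normalisation its E19 level was 6.75 on both arrays, against measured values of 6.51 and 6.41 in E16. These values give 1.22-fold higher in E19 under the main scaling. With E16 not well above background on either array, that is the measured ratio and not a firm lower limit. How large the difference was depended on how background was treated. The ratio was 0.29 ± 0.08 at the normexp offset of 50, 0.65 with no offset, and 1.78 from the processed signals of Feature Extraction. In the authors' deposited table it was 1.77, with a listed error of 0.31. The ratio was above 0 in all 12 alternatives, the lowest being 0.08 with spike-in centring. With median centring the arrays differed in sign (-0.05 on the first and 0.86 on the second).

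Hyal2, a hyaluronidase anchored at the cell surface that starts the cleavage of long chains, had E19 levels of 13.66 and 13.97 and E16 levels of 14.60 and 14.18. Both E16 levels lay above both E19 levels. The ratios were -0.94 and -0.21, a mean of -0.58 ± 0.52, or 1.49-fold higher in E16. This SD was the largest among the 9 genes, whose median SD was 0.12, and the direction was the same on both arrays while the size was not. With median centring the order of the arrays turned, to -0.36 and -0.85. With 1 array per orientation, dye and array cannot be told apart. In the reference gene order Hyal2 and Hyal1 are neighbours on chromosome 8.

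Cd44, the main surface receptor for hyaluronan, was measured by a pair of probes, and both were higher in E19. The brighter probe had E19 levels of 14.47 and 14.68 and E16 levels of 13.61 and 13.74. Its ratios were 0.86 and 0.94, a mean of 0.90 ± 0.06 or 1.86-fold, which is under the 2-fold rule on both arrays. The dimmer probe had E19 levels of 9.10 and 9.36 and E16 levels of 7.81 and 7.80. Its ratios were 1.29 and 1.57, a mean of 1.43 ± 0.19 or 2.69-fold, past the rule on both arrays. For either probe, the E19 levels on both arrays lay above the E16 levels on both arrays. The span listed for the dimmer probe covers 3683 bases of genome, against 61 for the brighter one, and which Cd44 transcripts each probe detects is not given in the sources used here. In the authors' deposited table Cd44 had a single ratio of 1.27, with a listed error of 0.16.

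Hmmr, a hyaluronan-binding protein that also works at the mitotic spindle, was the member with the closest arrays. The brighter of its probes had E19 levels of 10.29 and 9.84 and E16 levels of 10.14 and 9.68. Its ratios were 0.14 and 0.15, a mean of 0.15 ± 0.01. The other probe had ratios of 0.06 and 0.01, a mean of 0.03 ± 0.04. With spike-in centring the ratio of the brighter probe was -0.07, so its sign depended on the scaling. Of 20 listed genes of G2 and mitosis, all 20 were detected, 0 passed the 2-fold rule, 17 had a mean below 0, and their median ratio was -0.16. Their summed level was 173607 to 181050 in E19 and 205499 to 233899 in E16. Bub1b, a mitotic checkpoint kinase, had the lowest value in that list (-0.56 ± 0.47). A second probe of Aurkb, a mitotic kinase, was at 1.28 against -0.18 for the probe used.

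**Figure D3:**
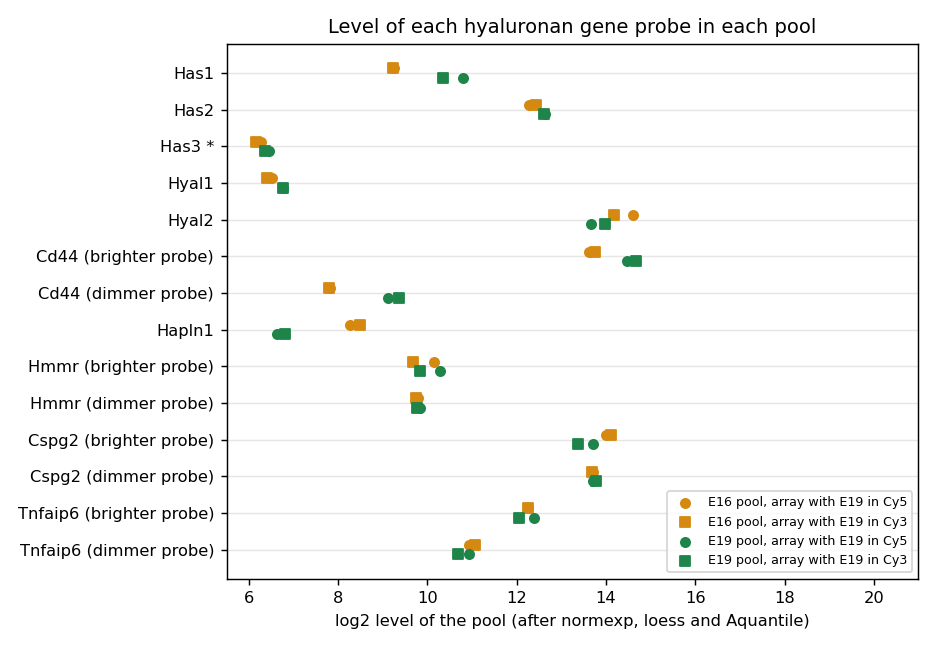
Log2 level (x axis) of each hyaluronan gene probe (y axis) in the E16 pool (orange) and the E19 pool (green); circles are the array with E19 in Cy5 and squares the array with E19 in Cy3, and the asterisk marks Has3, not detected. The pools are apart for Has1, both Cd44 probes, Hapln1 and Hyal2, and overlap for both Hmmr probes and the brighter Tnfaip6 probe. Levels are to be compared only within a probe.

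Among the matrix binders, Hapln1, the link protein that fastens lecticans onto hyaluronan in cartilage and other tissues, was higher in E16. Its E16 levels were 8.27 and 8.49 and its E19 levels 6.63 and 6.81, and the E16 pool was the higher one on both arrays. The ratios were -1.65 and -1.69, a mean of -1.67 ± 0.03, or 3.17-fold higher in E16. In E19 the probe was well above background on 1 of 2 arrays, in E16 on both, so the size of this difference rests on how background was treated and its small SD does not cover that. The ratio was -2.55 with no offset, -3.39 from the processed signals, and in the authors' deposited table -3.32, with a listed error of 0.35. A further probe described on the array as a match to link protein 1, but not carrying its name, was looked at after its values were seen. It was well above background in both pools on both arrays, with ratios of -3.19 and -2.94, a mean of -3.07 ± 0.18, or 8.38-fold higher in E16.

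Most cartilage markers were higher in E16, as Hapln1 was. All 12 of 12 listed cartilage genes were detected, 9 passed the 2-fold rule towards E16 and 0 towards E19, and their median ratio was -1.92. Their summed level was 14873 to 16514 in E19 and 55247 to 57429 in E16. The largest ratios were those of Cnmd (chondromodulin, -4.16 ± 0.19), Col2a1 (the main cartilage collagen, -2.69 ± 0.24) and Col9a2 (-2.41 ± 0.20), although a second Col2a1 probe was at -0.07. The 3 that did not pass were Matn4 (-0.78 ± 0.33), Sox9, the transcription factor of cartilage cells (-0.32 ± 0.15), and Col9a1, which alone had a mean above 0 (0.43 ± 0.02, with its other probe at -0.09). All 6 listed nerve genes were also higher in E16, with a median of -3.13 and a summed level of 8109 to 8567 in E19 and 48663 to 49165 in E16. The part of these tissues in the Hapln1 ratio was not tested. In bulk RNA, fewer cells of a type and less RNA per cell cannot be told apart.

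Versican, named Cspg2 on the array, is a large lectican that binds hyaluronan, and it gave values that depended on the probe. The brighter probe had E19 levels of 13.72 and 13.36 and E16 levels of 13.99 and 14.11, ratios of -0.28 and -0.74, and a mean of -0.51 ± 0.33. The other probe had E19 levels of 13.70 and 13.78 and E16 levels of 13.71 and 13.68, and a mean of 0.05 ± 0.08. The pools did not overlap on the first probe and overlapped on the second. In the reference gene order versican and Hapln1 are neighbours on chromosome 2. Tnfaip6, which transfers heavy chains of inter-alpha-trypsin inhibitor onto hyaluronan, had levels of 12.38 and 12.04 in E19 and 12.25 on both arrays in E16. Its mean was -0.04 ± 0.24 on the brighter probe and -0.19 ± 0.26 on the other, and the E19 and E16 levels overlapped on the brighter probe. On the other probe both pools read 10.92 on the first array.

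The marker lists of epidermis, dermal fibroblasts and leukocytes had medians above 0, in the direction of Has1 and Cd44, but few fibroblast and leukocyte genes passed the rule. Of 8 listed epidermal genes 7 were detected (loricrin was not found by name), all 7 with means above 0 and 4 past the rule, with a median of 1.70. Their summed level was 1174041 to 1290807 in E19 and 222375 to 659360 in E16. The largest means were those of the keratins Krt14 (ratios of 3.27 and 0.73), Krt10 (1.87 ± 1.04) and Krt1 (1.79 ± 1.56), whose SDs were large. Of 8 dermal fibroblast genes 1 passed the rule, Dcn (decorin, 1.36 ± 0.04), while 6 means were above 0 and 2 below it, those of Pdgfra (-0.31 ± 0.12) and Fbn1 (-0.03 ± 0.25). The fibroblast list had a median of 0.60 and a summed level of 615639 to 717068 in E19 and 336513 to 514383 in E16. Its collagens differed widely between the arrays, with ratios of 1.74 and 0.06 for Col3a1, 1.02 and 0.03 for Col1a1, and 1.15 and 0.29 for Col1a2. Of 8 leukocyte and macrophage genes 2 passed, Lyz2 (lysozyme, 1.64 ± 0.08) and Cd163 (a macrophage scavenger receptor, 1.62 ± 0.06, with another of its probes at 0.93). All 8 means were above 0 on the probe used, although another Csf1r probe was at -0.05 and another Ptprc probe at 0.14. The median of the 8 was 0.62, and their summed level was 120698 to 132669 in E19 and 66107 to 67108 in E16. The part of these cell types in the Has1 and Cd44 ratios was not tested.

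Around these genes, 41 others of the pathway were listed, of which 36 had a probe by name and 31 were detected. In this list 3 of 31 passed the rule towards E19 and 1 of 31 towards E16, beside 4.14% and 3.75% of all detected named genes. The share towards E16 was near that of all genes, and 3 of 31 is too few to set apart from 4.14%. The median ratio was 0.17. Ambp, which encodes bikunin, the light chain that carries the heavy chains before they are moved to hyaluronan, had ratios of 2.25 and 2.26 and a mean of 2.25 ± 0.01. Hyal4, a relative of the hyaluronidases known to act on chondroitin sulphate, was 2.69-fold higher in E19 (1.43 ± 0.01). Hapln3, a link protein, was 2.37-fold higher in E19 (1.25 ± 0.09), the opposite direction to Hapln1, but its call was lost with median centring and with spike-in centring. Acan, the cartilage lectican aggrecan, was 2.48-fold higher in E16 (-1.31 ± 0.07).

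By role, none of the 7 detected genes that supply the sugar nucleotides passed the rule, and their median was -0.03. Of 8 detected breakdown and uptake genes 1 passed, with a median of 0.32. Of 6 link proteins and lecticans 1 passed in each direction, with a median of -0.18. Of 3 detected genes of the heavy chain and cross-linking group 1 passed, with a median of 1.05. Of 7 detected other binding proteins and receptors 0 passed, with a median of 0.16. Ncan was not well above background in E19, nor Itih1 in E16.

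**Figure D4:**
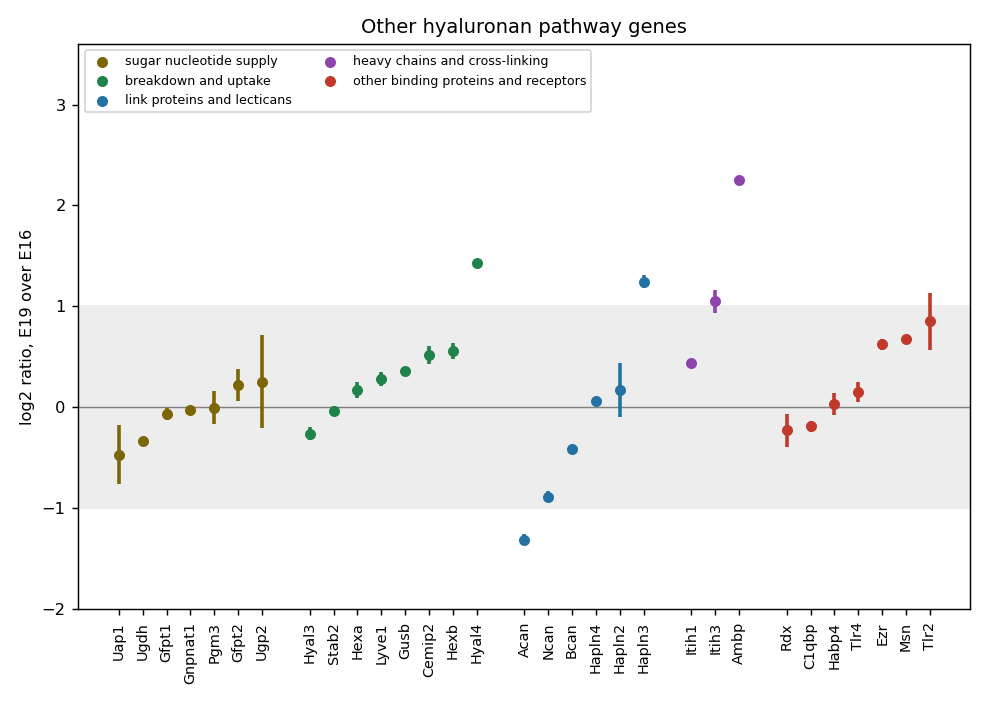
Log2 ratio of E19 over E16 (y axis) for the 31 detected hyaluronan pathway genes beyond the 10, grouped by role and ordered by value; points are means, vertical lines span the 2 arrays, and grey marks ratios under 2-fold. Ambp, Hyal4 and Hapln3 lie above the grey band on both arrays and Acan below it; Ncan and Itih1 were above background in 1 pool only and are drawn at their measured ratios.

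The alternative settings moved some of these genes more than others. The ratio of Cd44 lay between 0.68 and 1.27 over 13 alternatives, above 0 in each. That of Hyal2 lay between -0.94 and -0.21 and that of Cspg2 between -0.74 and -0.18, below 0 in each. For Cspg2 this range does not show a stable direction. With median centring its brighter probe read 0.26 on the first array and -1.35 on the second. Its other probe, not used in the single-probe settings, had a mean of 0.05 in the main setting. Hapln1 lay between -3.39 and -1.65 over 12 alternatives, and Hyal1 between 0.08 and 1.78.

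**Figure D5:**
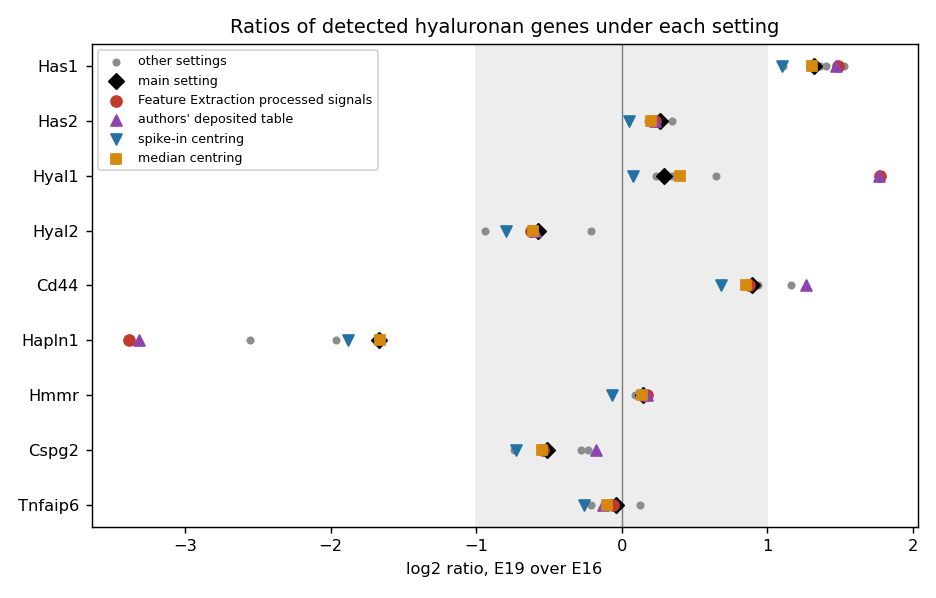
Log2 ratio of E19 over E16 (x axis) for the 9 detected hyaluronan genes (y axis) in the main setting (diamond) and under each alternative; grey marks ratios under 2-fold. Hyal1 and Hapln1 spread widest, with the processed signals and the authors' table far from the main setting, and Hmmr crosses 0 with spike-in centring.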

How the data were processed

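RNA from 1 pool per stage was hybridised to 2 dye-swapped arrays of 45018 spots, with between 71.5% and 74.3% of non-control spots well above background in each channel; the number of arrays limits the precision. Per the file headers, spot intensity was read with Agilent Feature Extraction 9.5.1.1, which also wrote processed intensities, a log10 ratio and a p-value per spot. The authors' deposited table holds log10 ratios, their errors and p-values, and how the authors merged the dye swap into them is not stated in the files or labels. It was read as E19 over E16 because it correlated with the turned Feature Extraction ratios (r = 0.93 and 0.95 over 30826 names), and Has1 was found in it by accession.

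From the intensities, normexp background correction with an offset of 50 and loess within arrays were run in limma 3.58.1 (R 4.3.3), with control spots at weight 0 and non-uniform or outlier spots left out. Pool levels were taken after Aquantile. Ratios were turned to E19 over E16 and averaged over both arrays. Detected means well above background in at least 1 pool on both arrays, and the brightest detected probe stands for a gene. Later steps used Python 3.11.15, numpy 2.4.6, pandas 2.3.3 and matplotlib 3.10.9. Names were updated through RefSeq on GRCr8: 10735 probes by accession, 5571 by symbol, 3729 by synonym and 3371 as in the files, while 17606 had none. The files name no genome build. The normalisation and the call rule were tested on simulated data with a dye effect linear in intensity. Changed spots were drawn from the middle of the intensity range, so the dimmest spots were not covered.

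The 10 genes and all lists were chosen with earlier results of these data known. Named were the 10 genes, every pathway gene past the rule and up to 3 genes per marker list with the largest ratios; others were named after their values were seen. Alternatives changed the background correction, centring, spots kept, probe choice, detection and fold limit, or used 1 array or the authors' table.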

Additional observations from a re-analysis of the deposited data

How the results depend on the processing

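Across alternatives, 94 values of the 9 detected genes stayed within the SD of the 2 arrays and 21 moved by more. Part of the 94 was fixed by construction. A value from 1 array alone always lies within that SD, and some detection and probe settings repeat the main value exactly. Of the genes called, 0 changed sign. Hmmr (-0.07 with spike-in centring) and Tnfaip6 (0.13 on the array with E19 in Cy5 alone) changed sign without being called. Spike-in centring, on 10 RNAs whose mean was 0.22 ± 0.04 (SD over RNAs), moved the median of all named genes to -0.20; it assumes equal spike-in amounts in both pools, which were not given. Hyaluronan genes called higher in E19, 1 in the main setting, numbered 2 with Feature Extraction processed signals (with Hyal1), 2 with the mean over probes or the 1.5-fold limit (with Cd44), 3 in the authors' deposited table (with both), and 0 with median centring, spike-in centring or the 3-fold limit. The 1 called higher in E16, Hapln1, became 0 when both pools had to be above background on both arrays, which removes it by construction. All named genes called higher in E19 and E16, 613 and 555 in the main setting, numbered 1413 and 1134 under the 1.5-fold limit, 178 and 230 under the 3-fold limit, 1014 and 885 with processed signals, 368 and 439 with median centring, 390 and 809 with spike-in centring, and 1106 and 897 in the authors' deposited table. Pathway genes higher in E19, 3 in the main setting, numbered 5 with processed signals, under the 1.5-fold limit and in the authors' deposited table, 1 under the 3-fold limit and 2 with spike-in centring, where Hapln3 was lost; with median centring there were 3, with Itih3 in place of Hapln3. Those higher in E16, 1 in the main setting, numbered 2 with no offset, processed signals, spike-in centring, the 1.5-fold limit and the authors' deposited table, and 0 under the 3-fold limit. Except where the construction is named, the cause was not tested. Dim signal over background limits Hyal1, Hapln1 and Has3. Each ratio already pairs the stages within an array, and with 1 RNA pool per stage no pairing across replicates was possible.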
